A study of Mus musculus with 14 samples.

Results

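The cytosolic heat shock chaperones examined here were 10 genes, chosen by name, of the 42396 genes listed in the tables of a bulk RNA-seq study of the mouse heart. They were the inducible heat shock protein 70 (HSP70) genes Hspa1a and Hspa1b, the constitutive Hspa8, the HSP110 gene Hsph1, the HSP90 gene Hsp90aa1 and the J-domain gene Dnajb1. The small heat shock protein genes Hspb1, Hspb7 and Cryab and the co-chaperone gene Bag3 completed the list. The rule names the genes and sets no measured value, and all 10 passed the filter on low values in both experiments. The data were 14 libraries, sequenced in 2 experiments, from whole hearts of female mice, described as FS6KD, a knockdown of the complex I subunit gene Ndufs6 by a gene trap on a mixed C57BL/6J and 129/Ola background. In the knockout experiment, hearts of 4 Atf3+/+FS6KD and 4 Atf3-/-FS6KD mice were taken at 12 weeks. The Atf3 deletion had been made by CRISPR-Cas9 in FS6KD fertilized eggs and passed on by intercrossing the founders, so it was not restricted to muscle. In the AAV experiment, neonates had been injected with a muscle-directed adeno-associated virus that carried a control hairpin RNA (MyoAAV2-shCtrl, 3 libraries) or a hairpin against Atf3 (MyoAAV2-shAtf3, 3 libraries), and their age when the hearts were taken is not clear from the labels. The sample labels of the AAV libraries do not say whether each is a separate mouse. They name only a control or an Atf3 knockdown genotype, and FS6KD comes from the design text of the series.

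Chaperones bind proteins that are unfolded or still being folded and keep them from aggregating. HSP70 holds and releases short exposed segments in a cycle driven by ATP, J-domain proteins hand it clients and start the cycle, and HSP110 proteins reset it by nucleotide exchange. HSP90 acts later, on kinases, steroid receptors and, in muscle, myosin. Small heat shock proteins hold unfolding clients without ATP, and Cryab and Hspb7 are abundant in striated muscle, where they attend desmin, titin and filamin. Bag3 joins HSP70 to small heat shock proteins and passes damaged filamin to autophagy. Under proteotoxic stress, heat shock factor 1 binds heat shock elements, inverted repeats of GAA, upstream of many of these genes, and the inducible HSP70 genes respond most strongly.

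The upstream sequences are shown for Hspa1a, Hspa1b and Dnajb1, whose levels moved together over the libraries, and for Hspb1, whose levels did not follow theirs closely. Each is the 250 bases before the start site on the strand of the gene, from RefSeq (GRCm38.p6), with GAANNTTC or TTCNNGAA, the letters of a pair of facing heat shock element units, in capitals. The positions are chr17:34972157-34972406 on the minus strand for Hspa1a, chr17:34959239-34959488 on the minus strand for Hspa1b, chr8:83607925-83608174 on the plus strand for the upstream of 2 start sites of Dnajb1 and chr5:135887669-135887918 on the plus strand for Hspb1.
Hspa1a: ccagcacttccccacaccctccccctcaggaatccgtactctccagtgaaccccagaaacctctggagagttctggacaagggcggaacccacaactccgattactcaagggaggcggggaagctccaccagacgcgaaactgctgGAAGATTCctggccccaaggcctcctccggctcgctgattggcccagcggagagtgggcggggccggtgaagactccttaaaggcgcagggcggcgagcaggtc
Hspa1b: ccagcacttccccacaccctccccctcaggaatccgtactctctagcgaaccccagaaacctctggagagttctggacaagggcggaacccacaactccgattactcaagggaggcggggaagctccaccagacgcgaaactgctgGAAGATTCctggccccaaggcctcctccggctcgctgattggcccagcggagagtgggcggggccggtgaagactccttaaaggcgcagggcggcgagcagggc
Dnajb1: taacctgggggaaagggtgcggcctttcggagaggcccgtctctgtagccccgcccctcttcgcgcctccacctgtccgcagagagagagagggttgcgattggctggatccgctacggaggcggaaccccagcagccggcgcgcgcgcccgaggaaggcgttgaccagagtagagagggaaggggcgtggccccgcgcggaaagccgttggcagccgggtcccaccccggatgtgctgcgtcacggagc
Hspb1: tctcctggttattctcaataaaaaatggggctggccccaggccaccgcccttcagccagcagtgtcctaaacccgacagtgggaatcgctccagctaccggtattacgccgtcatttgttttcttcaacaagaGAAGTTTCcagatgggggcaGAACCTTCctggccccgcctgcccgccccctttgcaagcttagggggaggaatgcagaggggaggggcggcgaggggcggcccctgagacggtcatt
The Hspa1a and Hspa1b windows matched at 247 of 250 bases without a gap, and each held GAANNTTC once, starting 104 bases before the start site. Hspb1 held it at 117 and 97 bases before its start. The Dnajb1 windows held neither form.

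RefSeq start sites were found for 7 of the 10 genes (9 start sites), and those of Hspa8, Hsp90aa1 and Cryab were not used here. The search covered both strands of 300 bases, from 250 before to 50 after the start. GAANNTTC or TTCNNGAA was present for 5 of the 7 genes, and in 15.1% of all 32851 promoter windows. Bag3 held GAANNTTC starting at base 42 after its start. Hsph1 held TTCNNGAA starting 33 bases before the upstream of its 2 start sites. It also held a 3-unit form, GAANNTTC followed by NNGAA, on the opposite strand, so that TTCNNGAA followed by NNTTC is read on its own strand starting at base 36 after the same start site, and this form overlaps a match to each of the shorter ones and was found in 0.603% of all windows. Dnajb1 and Hspb7 held none of these forms. TGACGTCA, the full site of the ATF/CREB family to which Atf3 belongs, was in 0 of the 7 genes' windows and in 1.79% of all windows. TGANTCA, the AP-1 form, was present only for Bag3 among the 7 genes, starting 20 bases before its start, and in 7.81% of all windows. These matches describe letters, and no binding was measured.

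Hspa1a and Hspa1b lie side by side on chromosome 17 (GRCm38, 34969190 to 34972156 and 34956436 to 34959238, both on the minus strand) and encode almost the same protein. Their coding sequences are 1926 and 1929 bases long and 99.4% identical over the alignment, with 8 different bases and 3 gapped positions. Of all windows of 100 bases in the Hspa1a coding sequence, 68.1% occur unchanged in Hspa1b. An ungapped stretch of 60 coding bases with as many differences as any, bases 1357 to 1416 of both, is shown with the 2 that differ in capitals, to show how few bases tell the genes apart.
Hspa1a: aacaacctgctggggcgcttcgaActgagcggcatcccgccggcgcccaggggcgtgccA
Hspa1b: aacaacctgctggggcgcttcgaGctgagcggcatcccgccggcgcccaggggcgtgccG
The tables also list each gene under 3 numbered copies, so the pair occupies 8 rows. Hspa1a_1 held the same value as Hspa1a in 14 of 14 libraries, and Hspa1a_2 the same as Hspa1a_3 in 14 of 14. The row of the gene itself held 30.6% to 32.5% of the counts of its 4 rows for Hspa1a and 30.1% to 32.6% for Hspa1b. The levels printed for Hspa1a and Hspa1b alone are therefore only part of what was assigned to the gene and its copies, and the split between the genes is uncertain. The ratio of Hspa1a to Hspa1b was 1.25 to 1.32 in Atf3+/+FS6KD and 0.943 to 1.30 in Atf3-/-FS6KD, where replicate 3 had less Hspa1a than Hspa1b, and 1.11 to 1.29 in the AAV experiment. The sum of the 8 rows is given beside each, at 272 to 2320 estimated counts per library.

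**Figure D1:**
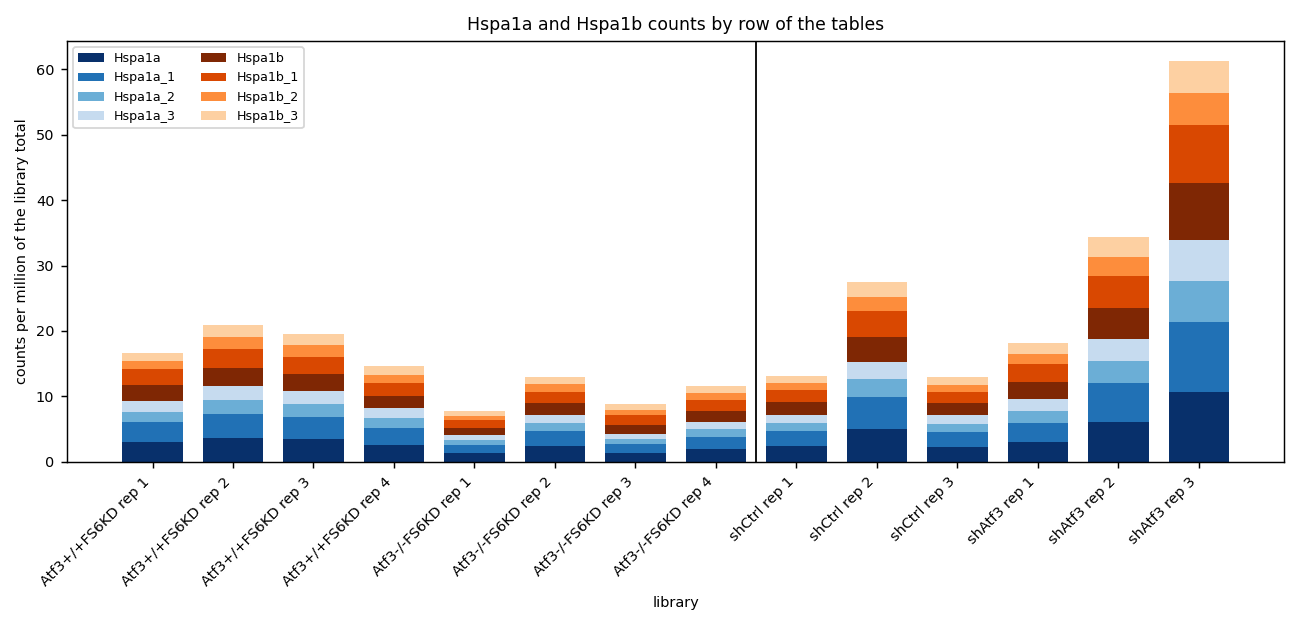
Estimated counts of the 8 rows of Hspa1a (blues) and Hspa1b (oranges) as CPM of the unscaled library total (vertical axis, linear from 0) in the 14 libraries (horizontal axis); the vertical line parts the experiments. The gene's own row keeps a similar share of its 4 rows in every library, while the summed height is lowest in Atf3-/-FS6KD replicate 1 and highest in the library labelled shAtf3 replicate 3.

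No other member has a numbered copy. Gm20481 overlaps Hspa1a on the opposite strand, and Hspb2, a small heat shock protein gene, overlaps Cryab on chromosome 9 (50751325 to 50756636) on the opposite strand. The libraries were stranded, but use of strand in counting is not given in the sources used here, so reads of such neighbours may be mixed. Bag3 on chromosome 7 (128523616 to 128546981) overlaps 2610306O10Rik on the same strand, and Hspa8 on chromosome 9 (40800984 to 40810087) holds 3 small nucleolar RNA genes.

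Total counts were 33914931 to 134920825 in the knockout experiment, where replicates 3 and 4 of each genotype were the deeper ones, and 30085432 to 40534913 in the AAV experiment. Ndufs6 stood at 2.34 to 3.79 CPM (read counts relative to the scaled library total) in the 14 libraries. Atf3 averaged 11.5 ± 9.53 CPM in Atf3+/+FS6KD and, in Atf3-/-FS6KD hearts, 25.1 ± 9.64 CPM, n = 4 each with SD (log2 fold change 1.14, SE 0.49, with adjusted p 0.480 in edgeR). Atf3+/+FS6KD replicate 1 measured 25.8 CPM, within the Atf3-/-FS6KD range, against 6.35 to 6.91 CPM in the other 3 hearts of its group, and without it the log2 fold change was 1.89 (edgeR adjusted p 0.113). The deletion covers part of the gene and the tables count whole genes, so whether the reads lie outside the deleted part was not tested, and this count was not taken as a check of the genotype. In the AAV experiment Atf3 averaged 12.5 ± 2.13 CPM with the shCtrl label and 16.6 ± 4.52 CPM with the shAtf3 label (n = 3 each, SD), a log2 difference of 0.41 ± 0.19 (SE, with adjusted p 0.420 in edgeR), which is not the direction of a knockdown. In that table the columns are also named in the opposite sense to the labels. The labels were followed, and every AAV direction below holds only if they are right. Cardiomyocyte markers summed to 69365 to 96397 CPM, the 3 atrial markers to at most 3.13 CPM and the 3 lens markers to at most 0.87 CPM, with 1 of the lens markers at 0 in each experiment. Only 1 of the 3 atrial markers passed the filter. The paper calls the knockout tissue whole heart, and whether atria were included was not tested.

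Levels between genes were compared as CPM per kilobase of exon. In Atf3+/+FS6KD hearts Cryab came first at 1279 ± 332 CPM per kilobase (SD, n = 4), followed by Hspb7 at 1041 ± 198, and the ranges of these muscle small heat shock protein genes overlapped. Hspa8, which encodes the housekeeping HSP70, came next at 760 ± 41.1 CPM per kilobase, with every heart below those of Hspb7. Hspb1 followed at 195 ± 41.8 CPM per kilobase. Bag3 stood at 96.5 ± 9.36 and Hsp90aa1 at 68.6 ± 19.3 CPM per kilobase, and these neighbours overlapped. Hsph1 stood at 22.4 ± 8.56 CPM per kilobase. Dnajb1 at 8.73 ± 1.40 and the 8 rows of Hspa1a and Hspa1b together at 6.36 ± 1.07 CPM per kilobase were the least expressed and overlapped. The inducible HSP70 genes were thus measured at a low level in these hearts, while the constitutive Hspa8 and the muscle small heat shock protein genes were abundant.

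The knockout comparison asked which genes respond when Atf3 is lost in the FS6KD heart. Hspa1a and Hspa1b had the largest differences among the 10 genes and were lower in Atf3-/-FS6KD, with no overlap between the genotypes. Dnajb1, which encodes the J-domain partner of HSP70, was lower by a smaller amount with overlap. The other 7 genes differed by at most 0.18 on the log2 scale. In edgeR 0 of the 10 genes reached an adjusted p below 0.05, as did 0% of the 15592 genes tested. At an unadjusted p below 0.05 edgeR had 1575 genes, DESeq2 called 208 of all genes at its adjusted p and limma-trend 0.

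Hspa1a measured 3.05, 3.82, 3.47 and 2.65 CPM in hearts 1 to 4 of Atf3+/+FS6KD (replicates 1 to 4). In Atf3-/-FS6KD it measured 1.26, 2.26, 1.26 and 1.90 CPM. Every Atf3-/-FS6KD heart lay below every Atf3+/+FS6KD heart. The means were 3.25 ± 0.507 and 1.67 ± 0.495 CPM (SD, n = 4 each), a log2 fold change of -0.96 (SE 0.22, with p 0.00173 and adjusted p 0.277 in edgeR). Hspa1b, which encodes the twin protein, measured 2.44, 2.99, 2.68 and 2.0 CPM against 1.15, 1.74, 1.34 and 1.66 CPM in the same order. Its groups did not overlap either, and its log2 fold change was -0.77 (SE 0.18, with p 0.00217 and adjusted p 0.299 in edgeR).

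The 8 rows of both genes summed to 16.9, 21.8, 19.9 and 14.8 CPM in hearts 1 to 4 of Atf3+/+FS6KD. In Atf3-/-FS6KD they summed to 7.68, 12.6, 8.47 and 11.5 CPM. The highest Atf3-/-FS6KD heart thus stayed below the lowest Atf3+/+FS6KD heart. The means were 18.3 ± 3.08 and 10.05 ± 2.34 CPM (n = 4 each, SD), and the log2 fold change was -0.87 ± 0.18 (SE, with p 0.000814 and adjusted p 0.249 in edgeR). This sum was added after the data were seen. DESeq2 gave an adjusted p of 0.0098 for Hspa1a and 0.0282 for Hspa1b, so their call depends on the tool. The log2 fold change of Hspa1a was -0.96 within replicates 1 and 2 and -0.95 within the deeper replicates 3 and 4, and leaving out any 1 heart gave -1.12 to -0.84.

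Groups without overlap made up 2 of the 10 genes, Hspa1a and Hspa1b, against 5.71% of all genes tested. The same 2 genes had an unadjusted p below 0.05, against 10.1% of all genes tested. Since they share reads, they are not separate observations.

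**Figure D2:**
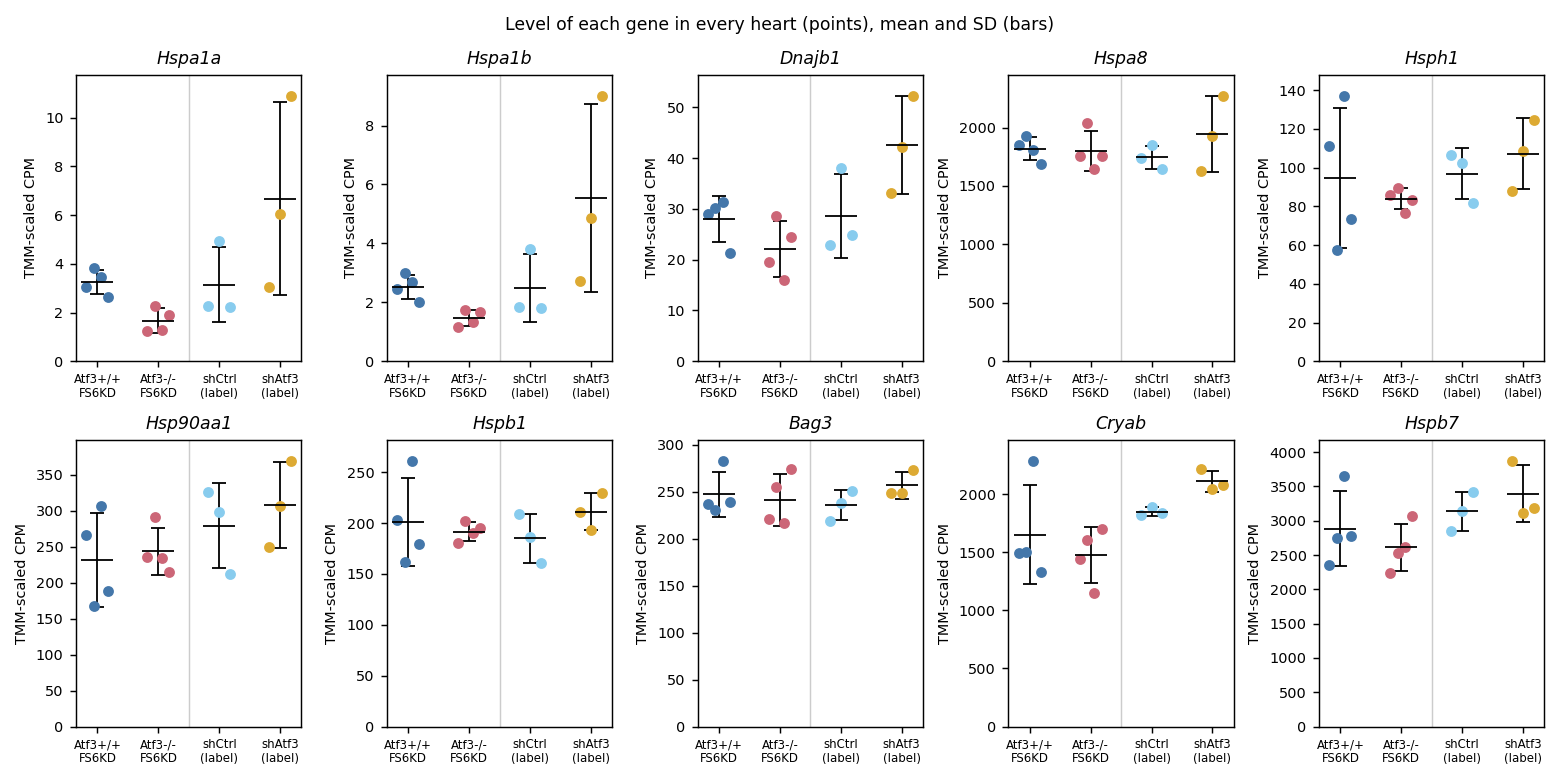
TMM-scaled CPM (vertical axes, linear from 0, a scale per gene) of the 10 genes in the 4 groups (horizontal axes); points are libraries, bars the mean and SD, and the grey line parts the experiments. Hspa1a and Hspa1b do not overlap between Atf3+/+FS6KD and Atf3-/-FS6KD, and Cryab does not overlap between the libraries labelled shCtrl and shAtf3.

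Dnajb1 measured 29.0, 30.2, 31.3 and 21.4 CPM in hearts 1 to 4 of Atf3+/+FS6KD and 19.5, 28.6, 16.1 and 24.5 CPM in those of Atf3-/-FS6KD. Atf3+/+FS6KD replicate 4 lay among the Atf3-/-FS6KD hearts. The log2 fold change was -0.34 (SE 0.18, with adjusted p 0.570 in edgeR), and it was -0.21 without Atf3-/-FS6KD replicate 3. Hspa8 showed nearly level means of 1819 ± 98.4 and 1798 ± 170 CPM (n = 4 each, SD), with a log2 difference of -0.02 ± 0.08 (SE, with adjusted p 0.957 in edgeR).

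Hsph1 measured 111, 57.3, 137 and 73.3 CPM in hearts 1 to 4 of Atf3+/+FS6KD, a wide spread, against 76.7 to 89.5 CPM in Atf3-/-FS6KD. Its log2 fold change was -0.18 (SE 0.23, with adjusted p 0.824 in edgeR). Hsp90aa1 measured 266, 168, 307 and 188 CPM in the same 4 Atf3+/+FS6KD hearts, high and low in the same hearts as Hsph1, and 214 to 291 CPM in Atf3-/-FS6KD. It was the only member with a log2 fold change above 0, at 0.07 (SE 0.19, with adjusted p 0.923 in edgeR), and that sign turned without Atf3+/+FS6KD replicate 2, Atf3+/+FS6KD replicate 4 or Atf3-/-FS6KD replicate 2. For both genes the spread among Atf3+/+FS6KD hearts exceeded the difference between the genotypes.

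Among the small heat shock protein genes, Hspb1 had means of 201 ± 43.1 and 192 ± 9.18 CPM (n = 4 each, SD), with a log2 difference of -0.07 ± 0.13 (SE, with adjusted p 0.881 in edgeR). Hspb7 had means of 2883 ± 548 and 2614 ± 341 CPM (log2 difference -0.14, SE 0.14, with adjusted p 0.749 in edgeR). Cryab had means of 1652 ± 428 and 1475 ± 243 CPM (log2 difference -0.16, SE 0.18, with adjusted p 0.782 in edgeR). Each of these 3 genes was highest in Atf3+/+FS6KD replicate 3, at 261, 3650 and 2284 CPM. Bag3 was nearly level at 247 ± 24.0 and 241 ± 27.6 CPM (log2 difference -0.03, SE 0.10, with adjusted p 0.926 in edgeR).

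In all, 9 of the 10 log2 fold changes were below 0, with a median of -0.15 beside 0.00 over all genes tested. This count rested on Atf3+/+FS6KD replicate 3, the heart in which 7 of the 10 genes, and also the actin gene Acta1, had their highest value of the knockout experiment. Without that library 5 of the 10 were below 0 and the median was 0.01, with Hsph1, Hspb1, Bag3 and Cryab on the other side of 0. Within replicates 1 and 2 the count was 4 of 10, and within replicates 3 and 4 it was 10 of 10. Hspa1a, Hspa1b and Dnajb1 stayed below 0 in all of these. Hspb7 did too, but without Atf3+/+FS6KD replicate 3 its log2 fold change was -0.0087.

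Several lists of markers of cell types and of handling had most genes on one side of 0, although edgeR called none of these genes and DESeq2 only Tnnt2, Actc1 and Col1a1. The 9 immediate early genes, induced within minutes of a stimulus or of tissue handling, were all lower in Atf3-/-FS6KD (median log2 fold change -0.42, 2 with an unadjusted p below 0.05, none called or at 0). Their summed level was 364 to 633 CPM in Atf3+/+FS6KD and 304 to 433 CPM in Atf3-/-FS6KD. Atf3+/+FS6KD replicate 2, the heart with the most Hspa1a and Hspa1b, had the highest such sum, while replicate 3, next in Hspa1a, had the lowest of its group. Of the 10 cardiomyocyte markers 9 were lower (79859 to 96397 against 69365 to 88740 CPM summed), and all 6 fibroblast markers (1165 to 1462 against 1377 to 1831 CPM) and all 6 macrophage markers (270 to 324 against 296 to 416 CPM) were higher. In edgeR 5 fibroblast and 2 macrophage markers had an unadjusted p below 0.05, as had 10.1% of all genes tested. Among the cardiomyocyte markers 2 lower and 1 higher had one. All 6 endothelial markers were higher too (746 to 938 against 826 to 968 CPM, median log2 fold change 0.11, 1 with an unadjusted p below 0.05). The 4 smooth muscle markers were split, 2 higher and 2 lower. Among the 4 skeletal muscle markers the sum was almost wholly Acta1, the skeletal actin gene that the heart also expresses, since Mylpf, Tnnt3 and Myh4 were each below 1 CPM in every library. Acta1 measured 1526 to 3828 CPM in Atf3+/+FS6KD and 1029 to 1179 CPM in Atf3-/-FS6KD, without overlap (log2 difference -1.12, SE 0.26, with adjusted p 0.290 in edgeR). Its highest value was in Atf3+/+FS6KD replicate 3. The part of these markers in the chaperone differences was not tested, and in a whole heart fewer cells of a type and less RNA per cell cannot be told apart.

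The AAV comparison asked the same of a knockdown of Atf3 in muscle. All 10 genes had higher means in the libraries labelled shAtf3, and Hspa1b, Hspa1a and Dnajb1 had the largest differences, as in the knockout comparison but of the opposite sign. Cryab differed by less, yet its groups did not overlap. In edgeR 0 of the 10 genes were called, beside 82 of 15225 genes tested (0.539%). At an unadjusted p below 0.05 there were 4 of the 10 (Hspa1a, Hspa1b, Dnajb1 and Cryab) against 12.7% of all genes. Here too Hspa1a and Hspa1b share reads and are not separate observations. DESeq2 and limma-trend called 0 of the 10 as well, beside 308 and 85 of all genes.

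Hspa1a measured 2.29, 4.92 and 2.24 CPM in the libraries labelled shCtrl replicates 1 to 3. It measured 3.04, 6.05 and 10.9 CPM in those labelled shAtf3 replicates 1 to 3. The groups overlapped, since shCtrl replicate 2 lay above shAtf3 replicate 1. The means were 3.15 ± 1.53 and 6.66 ± 3.96 CPM (n = 3 each, SD), and the log2 fold change was 1.07 ± 0.44 (SE, with p 0.0386 and adjusted p 0.360 in edgeR). Hspa1b had means of 2.48 ± 1.15 and 5.54 ± 3.19 CPM (log2 difference 1.14, SE 0.43, with adjusted p 0.314 in edgeR).

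The 8 rows of the pair summed to 12.8, 27.2 and 12.8 CPM in the libraries labelled shCtrl and to 18.5, 34.5 and 62.7 CPM in those labelled shAtf3. The library labelled shAtf3 replicate 3 stood furthest from the others. The log2 fold change of the sum was 1.13 (SE 0.42, with adjusted p 0.319 in edgeR). Without shAtf3 replicate 3 the log2 fold change of Hspa1a was 0.52 (edgeR adjusted p 0.730) and that of Hspa1b 0.61, so 1 library set much of its size. Without shCtrl replicate 2 that of Hspa1a was 1.55 (edgeR adjusted p 0.285).

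Dnajb1 measured 22.9, 38.2 and 24.8 CPM in the libraries labelled shCtrl and 33.1, 42.3 and 52.3 CPM in those labelled shAtf3. As for Hspa1a, shCtrl replicate 2 lay above shAtf3 replicate 1. The log2 fold change was 0.57 (SE 0.21, with p 0.0226 and adjusted p 0.305 in edgeR).

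Cryab measured 1817, 1891 and 1840 CPM in the libraries labelled shCtrl and 2212, 2042 and 2074 CPM in those labelled shAtf3. All of the latter lay above all of the former, with a log2 fold change of 0.19 (SE 0.05, with p 0.00654 and adjusted p 0.202 in edgeR). Groups without overlap were found for 1 of the 10 genes, Cryab, against 18.4% of all genes tested, so their share lay below that background.

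The other 6 genes had log2 fold changes of 0.11 to 0.19 and edgeR adjusted p values of 0.474 to 0.795. Hspa8 had means of 1745 ± 100 and 1942 ± 324 CPM (SD, n = 3 each), and Hspb7 of 3138 ± 287 and 3391 ± 416 CPM. Single libraries set much of these sizes. Without shAtf3 replicate 3 the log2 fold changes were 0.026 for Hspa8 (0.15 with it), 0.022 for Hsph1 (0.15) and 0.076 for Bag3 (0.12), and that of Hsp90aa1 (0.14) was -0.0090. Without shCtrl replicate 3 Hsph1 had 0.037, Hsp90aa1 -0.022 and Hspb1 0.098 (0.19 with it). Without shAtf3 replicate 1 that of Hspb7 (0.11) was 0.0064, while Hspa8 had 0.27, Hsph1 0.27 and Hsp90aa1 0.27. Without shCtrl replicate 1 Hsph1 had 0.22, Hsp90aa1 0.27, Hspb1 0.29, Bag3 0.072 and Hspb7 0.046, and Hspb7 had 0.18 without shCtrl replicate 3 or shAtf3 replicate 2. Hsph1, Hsp90aa1 and Hspb1 were each lowest in shCtrl replicate 3 and highest in shAtf3 replicate 3. The median log2 fold change of the 10 genes was 0.17, beside -0.00 over all genes tested. Of the 10 genes, 8 had the highest value of the AAV experiment in shAtf3 replicate 3, all but Cryab and Hspb7, which were highest in shAtf3 replicate 1. Without shAtf3 replicate 3, 9 of the 10 remained above 0.

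**Figure D3:**
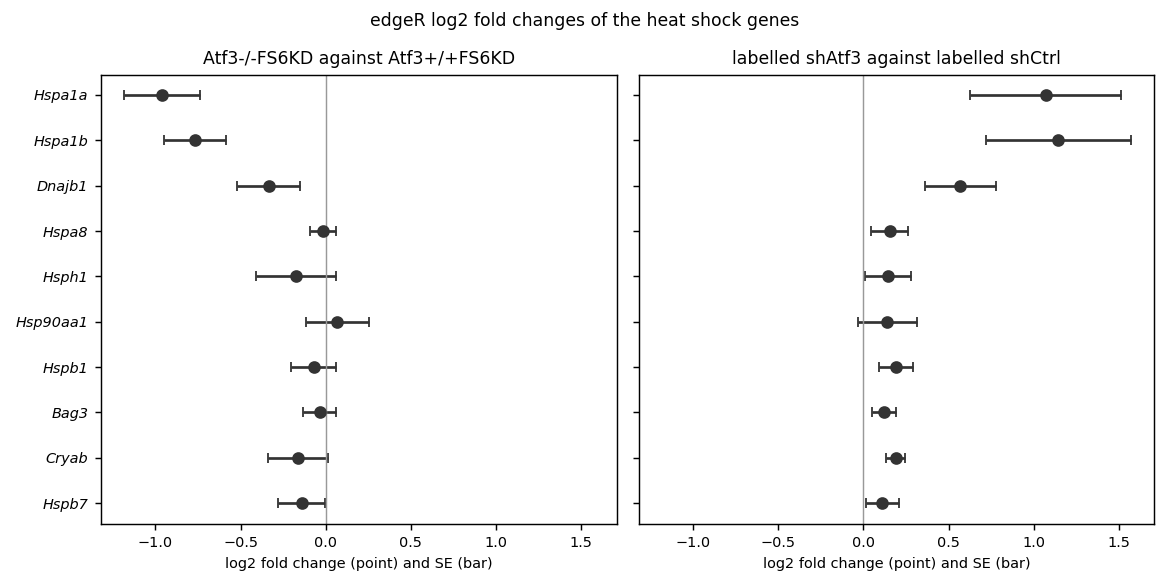
Log2 fold changes (horizontal axes; points, with bars of 1 SE) from edgeR for the 10 genes (vertical axis) in the knockout comparison (left) and the AAV comparison (right), above 0 where the level was higher in Atf3-/-FS6KD or in the libraries labelled shAtf3. Hspa1a, Hspa1b and Dnajb1 lie below 0 on the left (-0.96, -0.77 and -0.34) and above 0 on the right (1.07, 1.14 and 0.57).

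Cell type markers leaned here too. All 6 fibroblast markers were lower in the libraries labelled shAtf3 (2 called in edgeR and 5 in DESeq2; 1426 to 1806 against 1157 to 1317 CPM summed), as were all 6 macrophage markers (377 to 447 against 338 to 391 CPM) and all 4 smooth muscle markers (154 to 207 against 131 to 190 CPM, median log2 fold change -0.21, 1 with an unadjusted p below 0.05). The 6 endothelial markers were split, 4 higher and 2 lower. All 10 cardiomyocyte markers were higher (74222 to 83523 against 80531 to 86828 CPM). In edgeR all 6 fibroblast, 3 macrophage and 1 cardiomyocyte marker had an unadjusted p below 0.05, as had 12.7% of all genes tested. The immediate early genes summed to 202 to 430 CPM in the libraries labelled shCtrl and 279 to 357 CPM in those labelled shAtf3, with 7 of 9 lower. The library labelled shAtf3 replicate 3, highest in Hspa1a, had a sum of 285 CPM, within the range of the controls. The part of the markers in the chaperone differences was not tested.

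Whether the 2 comparisons differed was tested directly as an interaction over all 14 libraries, and the experiments share none of them. The differences are the knockout log2 fold change minus the AAV one. For Hspa1a the difference was -2.04 (SE 0.54, with p 0.00204 and adjusted p 0.0946 in edgeR) and for Hspa1b -1.92 (SE 0.50, adjusted p 0.0928). For the 8 rows summed it was -2.0 (SE 0.50, adjusted p 0.0892). For Dnajb1 it was -0.91 (SE 0.31, with p 0.012 and adjusted p 0.166 in edgeR). None passed the threshold in edgeR, while DESeq2 called Hspa1a and Hspa1b (adjusted p 0.00852 each), among 669 of all genes that it called. Without the library labelled shAtf3 replicate 3 the Hspa1a difference was -1.49 (edgeR adjusted p 0.206).

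In edgeR 0 of the 10 genes were called in this test, against 26 of 15708 genes (0.166%), and 3 of the 10 had an unadjusted p below 0.05, against 17% of all genes. The 3 were Dnajb1 and the pair Hspa1a and Hspa1b, which share reads and are not separate observations. All 10 differences were below 0. The other 7 ran from -0.36 (SE 0.23) for Cryab to -0.08 (SE 0.29) for Hsp90aa1, with adjusted p of 0.452 to 0.921. The control groups stood at similar levels, 18.3 ± 3.08 CPM (SD, n = 4) in Atf3+/+FS6KD and 17.6 ± 8.29 CPM (SD, n = 3) in shCtrl for the 8 rows of Hspa1a and Hspa1b, although CPM were scaled within each experiment. With the AAV groups taken from the column names in place of the labels, every AAV sign turned and the difference was 0.12 (SE 0.54) for Hspa1a, 0.39 (SE 0.49) for Hspa1b and 0.24 (SE 0.31) for Dnajb1, and the opposite signs in the 2 experiments thus rest on the labels.

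Within the groups, some members varied together from library to library, in sets that were described after the values were seen. After each group was centred on its own mean, log2 CPM were correlated over the 14 libraries, as a description in which both genes of a pair share library depth and tissue composition. Hspa1a and Hspa1b, which share reads, had a Pearson r of 0.983. Dnajb1 followed Hspa1a with r = 0.895 (0.918 over the 8 knockout libraries and 0.959 over the 6 AAV libraries). Hspa8 followed Dnajb1 with r = 0.821 (0.869 and 0.807). These 4 genes encode HSP70 proteins and a J-domain partner.

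A second set was formed by Hsph1 with Hsp90aa1 (r = 0.921, with 0.933 over the knockout and 0.982 over the AAV libraries) and with Hspb1 (r = 0.863, with 0.926 and 0.667). In the knockout libraries r between a gene of the first set and one of the second was lower than within either, from 0.00623 between Hspa1b and Hsph1 to 0.402 between Dnajb1 and Hsp90aa1. In the AAV libraries the sets were not apart, since Hspa1a and Hsph1 had r = 0.778 and Hspa8 and Hsph1 r = 0.887, above the 0.667 of Hsph1 with Hspb1. Bag3 went with Cryab (r = 0.875) and Hspb7 (r = 0.781) in the knockout libraries, while the AAV libraries gave -0.0485 and 0.261. Centred on the mean of the experiment, which keeps the group difference, the AAV values for Bag3 were 0.585 with Cryab and 0.441 with Hspb7. In the knockout experiment the 10 genes were thus not raised and lowered as a block: Atf3+/+FS6KD replicate 2 had the most Hspa1a and Hspa1b of that experiment and the least Hsph1, Hsp90aa1 and Hspb1.

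**Figure D4:**
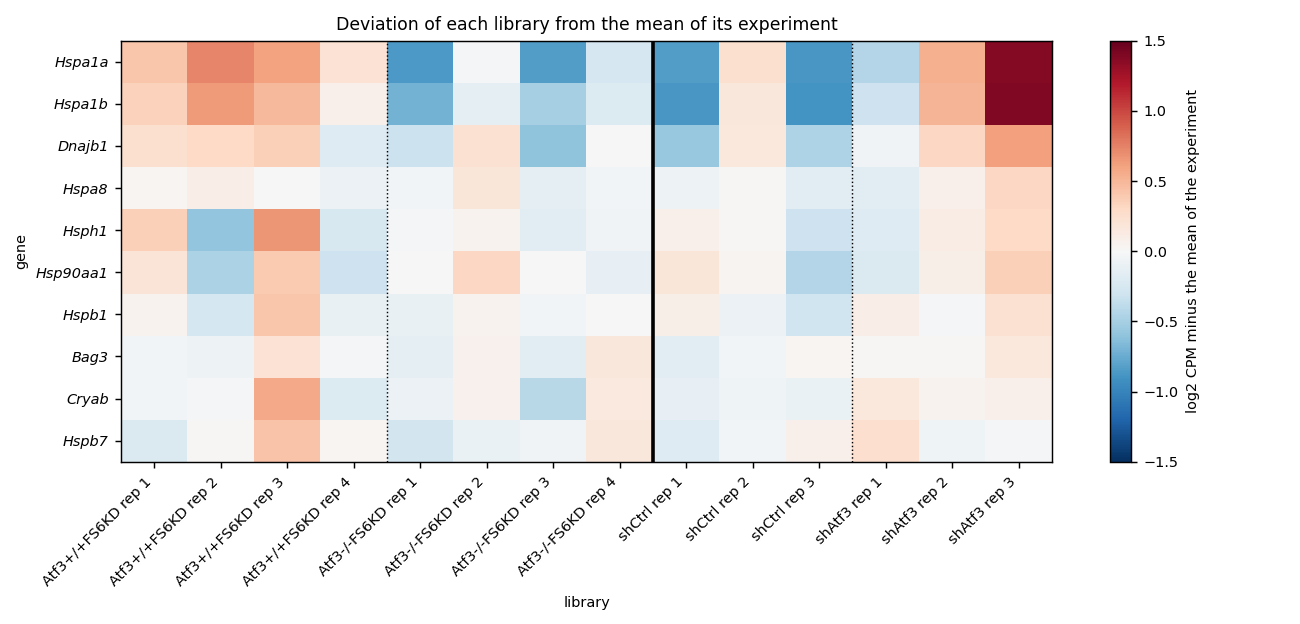
Log2 CPM of the 10 genes (vertical axis) minus the mean of the experiment in each of the 14 libraries (horizontal axis), red above and blue below, with dotted lines between groups and a solid line between experiments. Hspa1a, Hspa1b and Dnajb1 share their pattern, with the strongest red in the library labelled shAtf3 replicate 3, while Hsph1 and Hsp90aa1 differ from heart to heart among the Atf3+/+FS6KD libraries.

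Outside the members, the genes most like Hspa1a over the 14 libraries, centred on the mean of each experiment so that group differences are included, of 10117 genes ranked, were Ptprb (r = 0.903), Tmcc1 (r = 0.875) and Mbd5 (r = 0.850). Ptprb encodes a receptor phosphatase of endothelial cells. Those most like Cryab were Shmt1 (r = 0.915), Myot (r = 0.912) and Hand2 (r = 0.887), which encode a folate enzyme, a Z-disc protein and a cardiac transcription factor. All of these r values are the highest of 10117 ranked over only 14 libraries. How high r would run by chance was not tested.

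Other genes of the chaperone network were read from lists of 54 genes. In the knockout comparison edgeR called 0 of them, with 0 higher and 3 lower at an unadjusted p below 0.05 (10.1% of all genes tested reached it), and 37 of 54 were below 0 (median -0.04). The 3 were Des, the muscle intermediate filament and a client of Cryab (log2 difference -0.17, SE 0.06, with adjusted p 0.423 in edgeR, groups without overlap, as for 5.71% of all genes), Unc45b, the myosin chaperone that works with HSP90 (-0.27, SE 0.11, with adjusted p 0.459 in edgeR), and Hsp90ab1, the constitutive HSP90 gene (-0.17, SE 0.07, with adjusted p 0.476 in edgeR). In the AAV comparison edgeR called 0 of 54, with 9 higher and 3 lower at an unadjusted p below 0.05 (12.7% of all genes tested reached it), and 39 of 54 were above 0 (median 0.05).

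In that comparison Vim, the intermediate filament of fibroblasts and other non-muscle cells, measured 290, 278 and 281 CPM in the libraries labelled shCtrl and 228, 218 and 237 CPM in those labelled shAtf3 (log2 difference -0.32, SE 0.06, with adjusted p 0.0599 in edgeR). Its groups did not overlap. Hspb6, a further small heat shock protein gene of muscle, measured 1146, 1166 and 990 CPM against 1521, 1312 and 1363 CPM (log2 difference 0.35, SE 0.08, with adjusted p 0.133 in edgeR). Smyd1, a muscle methyltransferase that works on myosin with HSP90, differed by 0.26 on the log2 scale (SE 0.07, with adjusted p 0.181 in edgeR). DESeq2 called all 3 of these, among 308 of all genes. Vim was also called in limma-trend (adjusted p 0.0486) and in edgeR without the low-value filter (0.0216), with scaling by library size alone (0.0334) and without shCtrl replicate 3 (0.0336), and Hspb6 in edgeR without the filter (adjusted p 0.0157). Vim stayed uncalled in 11 of 16 alternatives, Hspb6 in 14 and Smyd1 in 15. Among the small heat shock protein genes Hspb6 and Cryab had groups without overlap, beside 18.4% of all genes tested, while Hspb1, Hspb2, Hspb7 and Hspb8 overlapped and Hspb3 had a log2 difference of -0.15 (SE 0.13) with overlap. The summed fibroblast markers were lower, like Vim, without overlap, and the summed cardiomyocyte markers were higher with overlap. The part of either was not tested.

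The 8 genes of TRiC, the ring chaperonin that folds actin and tubulin, were all slightly lower in the knockout comparison (median -0.04) and all slightly higher in the AAV comparison (median 0.06), and 0 of 8 were called in either. Of the heat shock factor genes, Hsf1, the main stress-responsive factor, had log2 fold changes of 0.09 (SE 0.09, with adjusted p 0.782 in edgeR) in the knockout comparison and -0.14 (SE 0.06, with adjusted p 0.373 in edgeR) in the AAV comparison. Hsf2 had 0.01 and 0.02. Hsf4 had 0.11 (SE 0.13, with adjusted p 0.802 in edgeR) and -0.46 (SE 0.14, with adjusted p 0.243 in edgeR). In both comparisons Hsf1 and Hsf4 transcript differences thus had the opposite sign to those of Hspa1a and Hspa1b, and none passed the threshold.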

How the data were processed

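RNA from whole hearts had been made into stranded mRNA libraries and sequenced. For the knockout experiment the study's methods state single-end reads aligned to GRCm38. Per the labels, GRCm38.p6 and featureCounts 2.0.0 apply to all samples. The aligner is not given in the sources used here. The authors' deposited tables, 1 per experiment, hold an estimated count for each gene in each library and were not normalized. Between 19.3% and 24.4% of a library's values were not whole, although whole counts had been assumed in planning, and values were rounded before every test. Of the 42396 listed genes 2379 are numbered copies, read as alternate-locus copies, which the labels do not state. No column of a sample was left out (0).

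Libraries were grouped by the labels. The chaperone genes and all other lists were chosen with earlier results of these data known. Genes above 1 CPM in at least 1 library, the study's filter, were tested over the whole table with edgeR 4.0.16 in R 4.3.3 (TMM scaling, two-sided quasi-likelihood test, no covariate). P-values were adjusted by Benjamini-Hochberg over all genes tested, with a threshold of 0.05. SE is the absolute log2 fold change divided by the square root of F. The interaction was fitted over all 14 libraries. Log2 CPM used a prior count of 2. Alternatives were DESeq2 1.42.0, limma-trend (limma 3.58.1), other scalings and filters, copies summed, a replicate block, depth batches, each library left out and, added after the data were seen, the AAV groups by column names. Gene models came from GENCODE M21 (GRCm38) and upstream sequences from RefSeq. Named genes were the 10 members, Atf3, Ndufs6, Hsf1, Hsf2 and Hsf4. To these were added any listed companion gene called in a comparison, the 3 with the smallest p per comparison, and the 3 genes most like Hspa1a and Cryab above 3 log2 CPM on average. Overlapping genes are uncertain. The study calls the knockout libraries biological replicates. The labels only number the AAV libraries, so p-values there measure the spread between these samples, which may be technical. A chi-square per gene of 7.31 to 99.3 between replicates showed no duplicate. The fits were checked on simulated counts with the same spread for every gene and changes set only in well counted genes. At an absolute log2 fold change of 1, 100 of 100 changed genes were called in the knockout design and 96 of 100 in the AAV design. Real genes differ in spread and depth, so this does not show how many real changes would be called.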

Additional observations from a re-analysis of the deposited data

Results flagged for a closer look

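Bag3 in Atf3+/+FS6KD replicate 3 measured 283 CPM, far from the other 3 hearts of its group at 230 to 239 CPM, by a gap test within groups of 4. This was 1 of 22 gene and group combinations checked, and chance alone flags about 1 in 20. The same heart had the highest value of the knockout experiment for 7 of the 10 genes.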

How the results depend on the processing

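The count of members called stayed at 0 in every alternative except DESeq2. DESeq2 called 2 members in the knockout comparison and 2 in the difference between the experiments, each time Hspa1a and Hspa1b, which share reads. Over all genes it called 208 and 669 in these comparisons. In the knockout comparison DESeq2 gave -0.97 and -0.77 for Hspa1a and Hspa1b. Over all alternatives 185 of 206 member values kept direction and side of the threshold in the knockout comparison, 154 of 156 in the AAV comparison and 222 of 236 in the difference between the experiments. Leaving out 1 library gave 0 members called throughout. The labels give both groups of an experiment the same replicate numbers, but libraries with the same number did not deviate together in every pair (correlations 0.14, 0.09, 0.01 and 0.13, and -0.00, 0.15 and 0.08), so the numbers were not taken as pairs. With the replicate block 0 members were called in either comparison, and all genes called in the AAV comparison went from 82 to 20.

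With the AAV groups kept by the labels, signs turned for genes with values near 0, and the cause was not tested. Scaling by library size alone gave 0.045 for Hspa8 and 0.026 for Bag3 in the knockout comparison, -0.020 for Hsf2 and -0.021 for Hsp90ab1 in the AAV comparison, and 0.029 for Hsp90aa1 and 0.089 for Hsf2 in the difference between the experiments. Within replicates 1 and 2 the knockout values were 0.011 for Hspa8, 0.060 for Hsph1, 0.069 for Hspb1, 0.029 for Bag3, 0.033 for Cryab and -0.023 for Hsf2, and within replicates 3 and 4 Hsp90aa1 was -0.14. Leaving out 1 library in the knockout comparison gave -0.082 to 0.023 for Hspa8, -0.058 to 0.23 for Hsp90aa1, -0.35 to 0.057 for Hsph1, -0.16 to 0.078 for Hspb1, -0.10 to 0.035 for Bag3, -0.25 to 0.033 for Cryab and -0.019 to 0.032 for Hsf2. In the AAV comparison it gave -0.022 to 0.27 for Hsp90aa1, -0.053 to 0.085 for Hsf2 and -0.074 to 0.11 for Hsp90ab1, and in the difference between the experiments -0.21 to 0.086 for Hsp90aa1 and -0.079 to 0.059 for Hsf2. With the AAV groups taken from the column names, an alternative added after the data were seen, the difference between the experiments was 0.12 for Hspa1a, 0.39 for Hspa1b, 0.14 for Hspa8, 0.21 for Hsp90aa1, 0.24 for Dnajb1, 0.12 for Hspb1, 0.091 for Bag3, 0.030 for Cryab, 0.051 for Ndufs6, -0.055 for Hsf1, 0.032 for Hsf2, -0.34 for Hsf4, -0.14 for Vim, 0.12 for Hspb6 and 0.14 for Smyd1, each with the sign turned.

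All genes called in the knockout comparison ranged from 0 to 208 (2 with no filter, 208 in DESeq2, 8 within replicates 3 and 4, 0 to 15 with 1 library left out), in the AAV comparison from 1 to 308 (304 with no filter, 308 in DESeq2, 1 to 285 with 1 library left out), and in the difference between the experiments from 0 to 669 (205 by library size alone, 61 with no filter, 669 in DESeq2, 48 in limma-trend, 43 with copies added, 0 to 168 with 1 library left out). At 1 to 11 CPM the rows of Hspa1a and Hspa1b are the least deeply counted, and 3 or 4 libraries per group limit all comparisons.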
